A study of Mus musculus with 10 samples.

Results

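The chromatin around 7 costimulatory receptors of the tumor necrosis factor (TNF) receptor superfamily was examined in regulatory T cells (Tregs): Tnfrsf4 (OX40), Tnfrsf18 (GITR), Tnfrsf9 (4-1BB), Tnfrsf1b (TNFR2), Tnfrsf8 (CD30), Tnfrsf25 (DR3) and Cd27. The members were the accessible regions (peaks) that lay in the body of any of these genes or within 10 kb of it on GRCm38, and they numbered 68 of the 97385 peaks in the count table. Tnfrsf8 had 16 peaks, Tnfrsf9 12, Tnfrsf1b 11, Tnfrsf25 9, Tnfrsf4 8, Tnfrsf18 8 and Cd27 7, and 3 peaks fell in the windows of both Tnfrsf4 and Tnfrsf18, which are neighbors. Accessibility had been measured by ATAC-seq, in which the Tn5 transposase cuts open chromatin and the cut fragments are sequenced. The TCRβ+CD4+Foxp3-YFP+ Tregs came from the spleen and the lung of C57BL/6 mice that were 10 days old. Control mice were Foxp3Cre Pik3c3+/+ or Foxp3Cre Pik3c3+/fl, with no label saying which of the 2 genotypes each library had, and Vps34-deficient mice were Foxp3Cre Pik3c3fl/fl, so every mouse carried the Cre and the YFP reporter, and the floxed gene, which encodes the lipid kinase Vps34, was deleted only where Foxp3 is expressed. By the labels there were 2 spleen control, 4 spleen Vps34-deficient, 2 lung control and 2 lung Vps34-deficient libraries. In the study's methods these spleen numbers are reversed, and the grouping here is that of the labels. Were the spleen labels exchanged, every spleen genotype direction given here would reverse, and the averages, the interaction and the tissue effects would change with it.

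TNF receptor superfamily members are single-pass membrane proteins that bind trimeric ligands on other cells and pass the signal on through TRAF adaptors or, for receptors with a death domain such as DR3, through TRADD, to NF-κB and MAP kinases. In T cells they act as costimulators beside the antigen receptor. Tregs are known for high GITR, OX40 and TNFR2 on their surface, and activated Tregs in non-lymphoid tissues raise several of these receptors further.

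Library totals ran from 9405823 to 22439699 counts, and a member peak held a median of 104 to 318 counts depending on the library. All 6 Treg markers examined (Foxp3, Il2ra, Ctla4, Ikzf2, Cd4 and Cd3e) had peaks in their gene bodies, whereas the B cell gene Ms4a1, the myeloid genes Lyz2, Adgre1, Fcgr1 and Clec7a, the epithelial genes Sftpc, Scgb1a1 and Krt8 and the NK cell gene Ncr1 had none. Other genes of the same lists did have peaks: Cd79a, Pax5 and Blk of B cells, Itgam and Cd68 of myeloid cells, Epcam, Nkx2-1 and Cldn18 of epithelium, Cd8a, Cd8b1, Klrb1c and Eomes of CD8 and NK cells, and all 5 endothelial genes, with 16 peaks in Pecam1. The highest peak at Pik3c3 held 60.8 to 62.0 CPM (counts per 1e6 counts in the library's peaks) in spleen control, 63.5 to 67.3 in spleen Vps34-deficient, 52.5 to 57.01 in lung control and 55.1 to 61.8 in lung Vps34-deficient libraries. Where the deleted part of the gene lies was not taken up, so these values do not check the genotype labels. Lung control library 2 stood apart at the member loci, where it was the highest of the 10 libraries at 25 of 68 peaks against 12.5% of all peaks tested. Over the 113 peaks in the bodies of the Treg markers and 10 kb on each side, the window of all summed marker levels given here, its summed CPM was 1228 against 962 in lung control library 1, and the part of this difference in the results was not tested.

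Accessibility was summed over all peaks of each gene to set the 7 loci side by side. Per kb of peak, Tnfrsf1b had the highest level, with a mean of 70.9 CPM per kb over the 10 libraries (range 63.4 to 79.3), followed by Tnfrsf18 at 58.2 (48.6 to 76.1), Tnfrsf4 at 48.6 (43.7 to 57.8), Tnfrsf9 at 44.7 (41.4 to 57.1), Tnfrsf25 at 35.3 (31.4 to 40.0), Tnfrsf8 at 32.99 (27.2 to 40.6) and Cd27 at 23.2 (19.04 to 26.4). The ranges of neighbors in this order overlapped except between Tnfrsf9 and Tnfrsf25 and between Tnfrsf8 and Cd27. Within libraries the order was steadier, since the higher gene of a neighboring pair was the higher one in 10 of 10 libraries for 4 of the 6 pairs, in 9 for Tnfrsf1b over Tnfrsf18 and in 7 for Tnfrsf25 over Tnfrsf8. Peaks in these windows can belong to other genes, since all 7 Cd27 peaks overlap Vamp1, the peaks upstream of Tnfrsf4 lie in Sdf4, and the Tnfrsf25 peaks outside that gene lie in Plekhg5 and Espn.

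**Figure D1:**
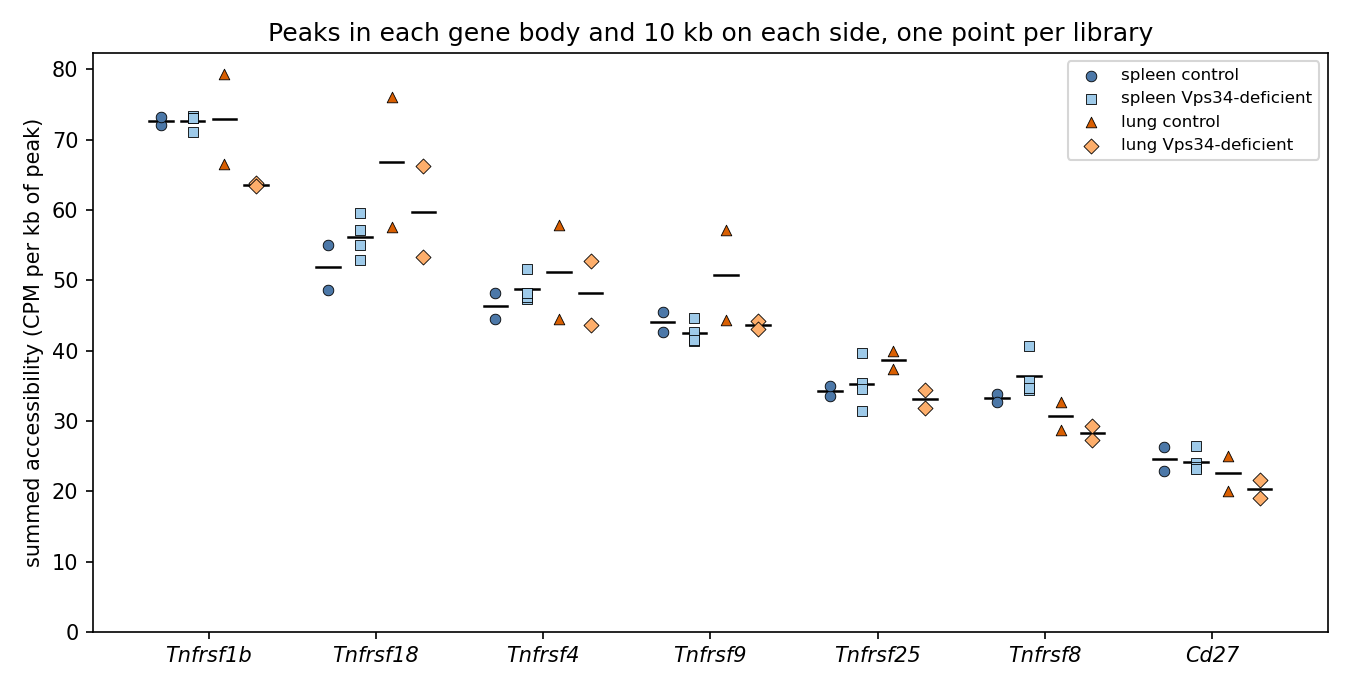
Summed accessibility of each receptor gene (vertical axis, CPM per kb of peak) in each of the 10 libraries, by tissue and genotype. Points are libraries and horizontal lines are group means. Tnfrsf1b lies highest (mean 70.9) and Cd27 lowest (mean 23.2), and the 2 lung control libraries lie far apart at Tnfrsf18, Tnfrsf4, Tnfrsf9 and Tnfrsf1b.

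The promoters of the receptors were open in every library and showed no called difference by tissue or genotype. The promoter peak was the most accessible peak within 1000 bp of an annotated start. A peak was called when edgeR's quasi-likelihood test gave a Benjamini-Hochberg adjusted p below 0.05 over all 97109 peaks tested and a log2 fold change beyond 0.5 in size. In the order spleen control libraries 1 and 2, spleen Vps34-deficient 1 to 4, lung control 1 and 2, lung Vps34-deficient 1 and 2, the Tnfrsf4 promoter (chr4:156013558-156014079) held 27.1, 23.8, 27.9, 27.3, 29.2, 32.4, 28.5, 29.6, 33.5 and 25.6 CPM. In the same order the Tnfrsf18 promoter (chr4:156026118-156026410) held 11.2, 14.5, 10.2, 12.2, 12.8, 11.6, 10.8, 17.3, 11.9 and 10.9 CPM. At Tnfrsf4 the spleen Vps34-deficient libraries all lay just above both controls (log2 fold change 0.20, SE 0.13, adjusted p = 0.513), and the lung groups overlapped. At Tnfrsf18 the genotypes overlapped in both tissues, with -0.13 (SE 0.19) in spleen and -0.34 (SE 0.23) in lung, both of which changed sign under other settings or with a library left out (-0.36 to 0.03 and -0.52 to 0.09).

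The peak that the same rule takes for Tnfrsf9 (chr4:150914206-150914767) also covers the start of Park7, and it held 55.9, 58.0, 51.2, 51.7, 53.8, 55.1, 55.9, 55.6, 51.2 and 49.5 CPM. Every Vps34-deficient library was below every control here, by little (average log2 fold change -0.13, SE 0.07, adjusted p = 0.233). RefSeq places 2 starts of Tnfrsf9 further in, of which the one at position 150920155 lay in no peak and the one at 150927999 lay in a peak with a mean of 11.6 CPM. The Tnfrsf1b promoter (chr4:145246631-145247096) held 36.5, 37.1, 39.2, 31.8, 34.3, 28.9, 29.6, 31.5, 27.8 and 25.0 CPM. The lung Vps34-deficient libraries were the 2 lowest here, and the average lung over spleen log2 fold change of -0.25 (SE 0.09, adjusted p = 0.0456 by edgeR's quasi-likelihood test) was under the fold threshold. At Tnfrsf8 the promoter (chr4:145315020-145315496) held 46.1, 46.2, 52.3, 45.02, 43.1, 48.8, 41.3, 49.1, 38.5 and 39.6 CPM, so the lung Vps34-deficient libraries were again the 2 lowest. The death-domain receptor gene Tnfrsf25 (promoter chr4:152115770-152116431) held 22.4, 19.01, 24.6, 22.1, 23.4, 19.4, 20.2, 27.0, 19.7 and 19.9 CPM, with overlapping genotypes in spleen and both lung Vps34-deficient libraries just below the controls. Cd27 (promoter chr6:125236654-125237226) held 12.7, 14.2, 17.3, 14.4, 16.6, 11.6, 13.6, 14.2, 13.8 and 11.2 CPM, and its groups overlapped in both tissues.

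The first question was whether Vps34 loss changed accessibility at the receptor loci in spleen. None of the 68 member peaks was called lower, against 1.02% of all peaks, and none higher, against 0.441%. DESeq2 also called 0 peaks, and 7 members had an unadjusted p below 0.05, as did 14.3% of all peaks. The median log2 fold change of the members was 0.05 and that of all peaks was 0.05. The member median was 0.01 with no filter or halved counts (0.01 over all peaks), -0.0006 without spleen Vps34-deficient library 1 (0.01) and -0.02 without spleen control library 1 (0.02). All 4 Vps34-deficient libraries lay below both controls at 7 member peaks (11.1% of all peaks) and above them at 16 (15.0% of all peaks). The smallest adjusted p belonged to an intergenic peak 4708 bp from the Tnfrsf18 start (chr4:156030574-156031171). It held 32.6 and 33.2 CPM in the control libraries and 42.7, 48.7, 41.3 and 50.8 CPM in the Vps34-deficient libraries. The groups did not overlap, but the log2 fold change of 0.48 (SE 0.14) did not pass (adjusted p = 0.0849 by edgeR's quasi-likelihood test). Summed over all peaks of a gene, no member passed either, with log2 fold changes between -0.05 for Tnfrsf9 and 0.13 for Tnfrsf8, while 0.21% of 17619 genes were called.

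In lung Tregs, 4 member peaks were called lower without Vps34, 1 each at Tnfrsf18, Tnfrsf1b, Tnfrsf25 and Tnfrsf9. These were 4 of 68 peaks (3.74% of all peaks were called lower), and no member was called higher, against 1.22% of all peaks. DESeq2 called 3 lower and 0 higher. The median log2 fold change was -0.21 over the 68 members and 0.02 over all peaks, and 49 of the 68 values were negative. Without lung control library 2 this median was -0.05, beside 0.05 over all peaks. Both Vps34-deficient libraries lay below both controls at 32 member peaks (22.0% of all peaks) and above both at 9 (23.8% of all peaks). A lower share of a Treg subset with open receptor loci and a lower accessibility in each cell cannot be told apart in sorted bulk cells. Other summed marker levels also differed between the lung groups: the 5 endothelial genes held 206 to 237 CPM in control and 169 to 184 in Vps34-deficient libraries, the B cell list 156 to 169 and 146 to 147, and the CD8 and NK cell list 106 to 116 and 128, while the Treg list overlapped. From lung control to lung Vps34-deficient libraries, endothelial means within gene bodies fell at Pecam1 (164.5 to 121.7 CPM) and Cdh5 (8.63 to 6.07). They rose at Kdr (9.825 to 11.71), Tek (1.983 to 4.595) and Emcn (1.132 to 1.309). Of the B cell genes Blk fell (38.78 to 31.94), whereas Pax5 (27.08 to 28.13) and Cd79a (5.02 to 5.53) rose. Cd8a, Cd8b1, Klrb1c and Eomes all rose. The part of these levels in the lung result was not tested. The call count rested on single libraries of the lung groups: without lung control library 2 it was 0, without lung control library 1 it was 8 (and 1 member was then called higher), without lung Vps34-deficient library 1 it was 1 and without library 2 it was 0. Leaving out either spleen control library, which share the estimate of spread, left 2, a fit of the lung groups alone left 0, and a block on the replicate number left 2.

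**Figure D2:**
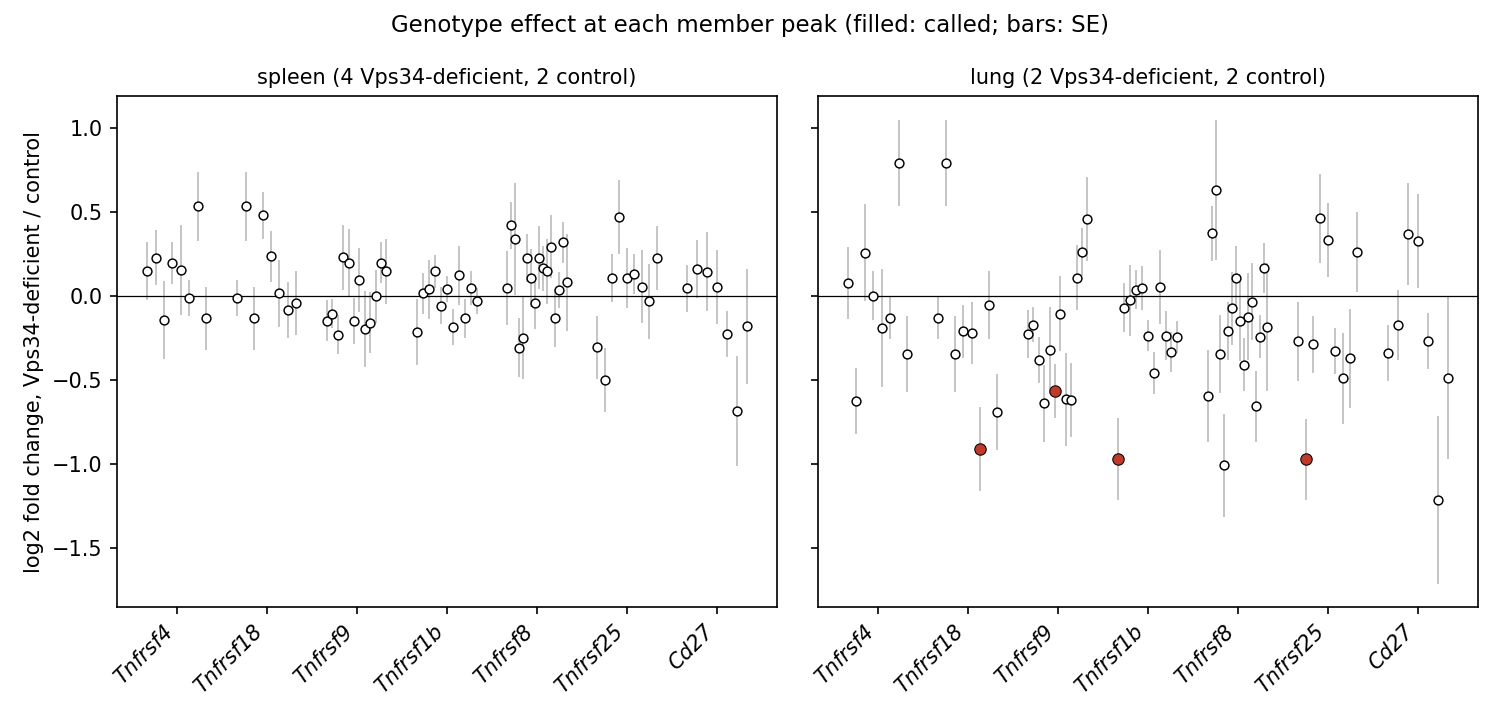
Log2 fold change of Vps34-deficient over control Tregs (vertical axis) for every peak of each receptor gene, in spleen (left) and lung (right). Points are peaks in genomic order within a gene, bars are standard errors, and filled red points are called; no spleen point is filled, and the 4 filled lung points lie between -0.97 and -0.56.

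The called Tnfrsf1b peak (chr4:145209349-145209685) is intergenic, 37353 bp downstream of the start of the gene that encodes TNFR2. It held 10.8 and 8.68 CPM in spleen control, 10.1, 7.22, 9.30 and 7.03 in spleen Vps34-deficient, 13.2 and 13.6 in lung control and 8.12 and 5.61 in lung Vps34-deficient libraries. In lung both Vps34-deficient libraries were well below both controls, whereas in spleen the genotypes overlapped. The lung log2 fold change was -0.97 (SE 0.24, adjusted p = 0.0196 by edgeR's quasi-likelihood test), and it ended as a call without lung control library 2 (-0.91, adjusted p = 0.118) or lung Vps34-deficient library 2 (-0.66, adjusted p = 0.218). The 300 bases around its centre are printed because it is a called peak that holds an AP-1 match. In all printed windows, capitals mark matches to any of 6 short motifs searched on both strands: AP-1 (TGANTCA), CRE (TGACGTCA), Runx (TGTGGTT), forkhead (TGTTTAC), ETS (AGGAAGT) and NF-κB (GGG and TTTCC with any 2 bases between).
Tnfrsf1b distal peak, plus strand, GRCm38 chr4:145209367-145209666: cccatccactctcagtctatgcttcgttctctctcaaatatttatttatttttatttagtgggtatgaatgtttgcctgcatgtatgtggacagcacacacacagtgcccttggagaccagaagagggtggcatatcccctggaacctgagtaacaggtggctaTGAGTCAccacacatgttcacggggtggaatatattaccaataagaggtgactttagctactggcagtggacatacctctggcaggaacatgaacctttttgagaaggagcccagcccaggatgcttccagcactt

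Inside the gene, an intronic Tnfrsf1b peak (chr4:145240654-145241354) lay just outside the fold threshold in lung, with 72.8 and 101 CPM in lung control and 61.4 and 68.0 CPM in lung Vps34-deficient libraries (log2 fold change -0.46, SE 0.13, adjusted p = 0.0341 by the same test). Both Vps34-deficient libraries were below both controls. Over all 11 Tnfrsf1b peaks the median lung log2 fold change was -0.23, and the summed value for the gene was -0.22 (SE 0.08, adjusted p = 0.118; -0.04 without lung control library 2), from 478 and 570 CPM in control to 459 and 456 CPM in Vps34-deficient libraries.

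At Tnfrsf9, which encodes the activation-induced costimulator 4-1BB, the called peak was intronic (chr4:150924106-150924765), 9873 bp from the most upstream start and also within an intron of Camta1. It held 34.7 and 31.0 CPM in spleen control and 29.1, 28.0, 32.6 and 28.8 in spleen Vps34-deficient libraries. In lung it held 41.1 and 67.2 CPM in control and 40.0 and 34.9 in Vps34-deficient libraries. The lung groups barely separated, since control library 1 was within 2 CPM of the nearer Vps34-deficient library. The log2 fold change was -0.56 (SE 0.16, adjusted p = 0.0422), and it was -0.11 (adjusted p = 0.811) without lung control library 2, -0.59 (0.12) and -0.39 (0.301) without lung Vps34-deficient library 1 or 2. The call also ended without spleen control library 1 or 2 (0.0723 and 0.0879) and without spleen Vps34-deficient library 2 or 4 (0.0571 and 0.0591). It was kept in 4 of the 11 alternative settings and 3 of the 10 fits that left out a library, the fewest of the 4 lung calls. Its window holds an AP-1 match.
Tnfrsf9 intronic peak, plus strand, GRCm38 chr4:150924285-150924584: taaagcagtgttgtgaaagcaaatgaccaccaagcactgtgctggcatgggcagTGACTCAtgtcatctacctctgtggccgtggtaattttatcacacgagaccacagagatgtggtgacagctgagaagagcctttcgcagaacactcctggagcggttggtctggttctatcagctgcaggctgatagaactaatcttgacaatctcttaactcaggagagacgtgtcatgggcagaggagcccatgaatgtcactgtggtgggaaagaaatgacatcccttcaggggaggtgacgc

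The called Tnfrsf18 peak (chr4:156032970-156033198) is intergenic, 6920 bp downstream of the start of the GITR gene. It held 7.40 and 6.54 CPM in spleen control, 6.61, 6.42, 7.99 and 7.18 in spleen Vps34-deficient, 7.44 and 10.0 in lung control and 4.87 and 4.66 in lung Vps34-deficient libraries. The 2 lung Vps34-deficient libraries were the lowest of all 10, while spleen values overlapped. The lung log2 fold change was -0.91 (SE 0.25, adjusted p = 0.0346), against 0.02 (SE 0.20) in spleen, and the difference between the tissues was not called (interaction log2 fold change -0.92, adjusted p = 0.5). Without lung control library 2 the lung value was -0.62 (adjusted p = 0.361), without lung Vps34-deficient library 1 it was -0.87 (0.153) and without library 2 it was -0.80 (0.166), so the call was lost each time, as it was without either spleen control library (adjusted p = 0.0636 and 0.0734). The call was kept in 8 of the 11 alternative settings and ended with a block on the replicate number. None of the 6 motifs matched in the window of this peak.
Tnfrsf18 distal peak, plus strand, GRCm38 chr4:156032934-156033233: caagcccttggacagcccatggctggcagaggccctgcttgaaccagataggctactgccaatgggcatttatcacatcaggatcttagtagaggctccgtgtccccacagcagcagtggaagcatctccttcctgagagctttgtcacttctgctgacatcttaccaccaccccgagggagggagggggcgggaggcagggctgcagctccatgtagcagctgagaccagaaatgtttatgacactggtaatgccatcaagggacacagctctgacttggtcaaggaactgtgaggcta

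The peak called for Tnfrsf25 lies 7622 bp upstream of that gene, over a coding exon of Plekhg5, so its assignment to the DR3 gene rests on distance alone. It held 11.3 and 13.1 CPM in spleen control, 8.49, 9.54, 10.0 and 6.32 in spleen Vps34-deficient, 12.6 and 14.5 in lung control and 6.34 and 7.83 in lung Vps34-deficient libraries. Every Vps34-deficient library was below every control library in both tissues. The log2 fold change was -0.97 (SE 0.24, adjusted p = 0.0173) in lung, -0.49 (SE 0.19, adjusted p = 0.211) in spleen and -0.68 (SE 0.16, adjusted p = 0.00696) on average over both tissues. The average was called in all 10 fits that left out a library and all 10 other settings. The lung call alone was lost without lung control library 2 (-0.81, adjusted p = 0.164), lung Vps34-deficient library 1 (-0.74, 0.188) or library 2 (-1.04, 0.0561).

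Averaged over the 2 tissues, 1 member peak was called lower for genotype, the Plekhg5 peak above (4.06% of all peaks), and 1 was called higher (3.52% of all peaks). DESeq2 called 3 lower and 1 higher. The higher peak (chr4:156023588-156023802) lies between Tnfrsf4 and Tnfrsf18, 9339 bp from the nearest start of the first and 2362 bp upstream of the second. It held 5.53 and 6.75 CPM in spleen control, 9.88, 9.54, 8.08 and 7.90 in spleen Vps34-deficient, 4.04 and 5.22 in lung control and 8.37 and 8.15 in lung Vps34-deficient libraries. Here the direction was opposite to that of the lung calls, and every Vps34-deficient library exceeded every control library. The average log2 fold change was 0.64 (SE 0.16, adjusted p = 0.0147), from 0.54 in spleen and 0.79 in lung, neither of which passed alone. Without spleen control library 1 it was 0.59 and no longer passed (adjusted p = 0.0665). Its window is shown as the only member region called higher without Vps34, and it has no match to the 6 motifs.
Peak between Tnfrsf4 and Tnfrsf18, plus strand, GRCm38 chr4:156023545-156023844: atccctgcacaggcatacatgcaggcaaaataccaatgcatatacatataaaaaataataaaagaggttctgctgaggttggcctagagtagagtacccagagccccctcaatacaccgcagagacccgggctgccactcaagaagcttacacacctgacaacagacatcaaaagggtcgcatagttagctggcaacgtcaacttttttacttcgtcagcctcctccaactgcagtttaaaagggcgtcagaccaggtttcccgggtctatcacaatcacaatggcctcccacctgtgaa

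**Figure D3:**
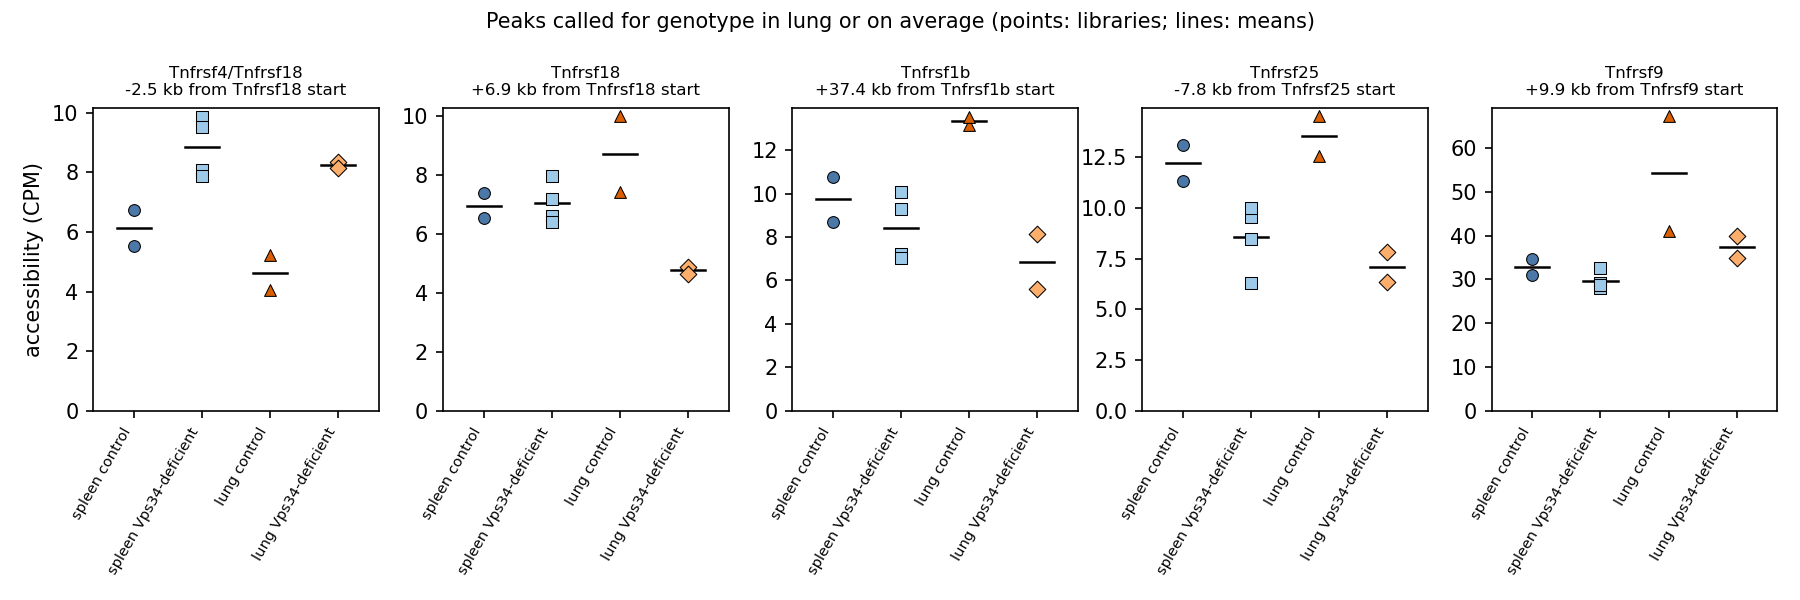
Accessibility (vertical axes, CPM) in each library of the 5 member peaks called for genotype in lung or on average, with the distance of each from the named gene's start. Points are libraries and lines are group means; the peak between Tnfrsf4 and Tnfrsf18 is higher in all Vps34-deficient libraries, the Plekhg5 peak near Tnfrsf25 is lower in all of them, and at the Tnfrsf9 peak lung control library 2 (67.2 CPM) stands far above the rest.

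Summed per gene, none of the 7 receptors was called in lung (2.38% of 17619 genes were). The log2 fold changes ran from -0.11 (SE 0.12) for Tnfrsf4 to -0.25 (SE 0.09) for Tnfrsf25, with -0.05 as the median of all genes, and without lung control library 2 they were -0.15 for Tnfrsf25, -0.04 for Tnfrsf1b, -0.0049 for Tnfrsf8, -0.0015 for Tnfrsf9, 0.04 for Cd27, 0.08 for Tnfrsf18 and 0.14 for Tnfrsf4; Tnfrsf18 and Tnfrsf4 also turned positive without lung Vps34-deficient library 2, and Tnfrsf4 with a window of 2 kb. The smallest adjusted p was 0.118 for Tnfrsf1b by edgeR's quasi-likelihood test. DESeq2 called 0 of the 7 as well. Tnfrsf9 had 263 and 339 CPM in lung control and 262 and 256 CPM in lung Vps34-deficient libraries, so control library 1 was level with the Vps34-deficient libraries. Tnfrsf18 had 215 and 283 CPM in control against 247 and 199 CPM, and Tnfrsf4 had 177 and 229 CPM against 209 and 173 CPM, with overlap at both.

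The next question was how the loci differ between lung and spleen. In control Tregs, 7 member peaks were called higher in lung (11.8% of all peaks) and 1 lower (3.53% of all peaks). The 7 were 3 at Tnfrsf9, 2 at Tnfrsf18, 1 at Tnfrsf1b and 1 next to Tnfrsf25, and DESeq2 called 6 higher and 2 lower. The higher count was 2 without lung control library 2 or spleen control library 1, and the lower count was 6 without lung control library 2 and 0 without library 1. In Vps34-deficient Tregs none was called higher in lung (12.5% of all peaks), 6 were lower (4.72% of all peaks), and 21 members had an unadjusted p below 0.05 (31.0% of all peaks did); DESeq2 called 0 higher and 6 lower. The 6 were 3 at Tnfrsf8 and 1 each at Tnfrsf9, Tnfrsf4 and Cd27, and the count was 0 without lung Vps34-deficient library 1, 2 without library 2 and 2 with a block on the replicate number. The 2 lists share 1 peak, an intronic Tnfrsf8 peak that was lower in lung in both genotypes. The median tissue effect of the members was 0.07 in control and -0.19 in Vps34-deficient Tregs, beside 0.04 and -0.03 for all peaks, and without lung control library 2 that in control was -0.14, beside -0.07. The control median was also negative without spleen control library 1 (-0.06, beside -0.02) or spleen Vps34-deficient library 1, 2 or 3 (-0.01, beside -0.04), and with library size scaling, no filter or halved counts (-0.01, beside -0.04). The Vps34-deficient median was -0.09, beside 0.03, without lung Vps34-deficient library 2. Both lung control libraries lay above both spleen controls at 13 member peaks (28.6% of all peaks) and below at 21 (29.6% of all peaks). Both lung Vps34-deficient libraries lay above all 4 spleen ones at 3 (20.7% of all peaks) and below at 31 (21.6% of all peaks).

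Whether the tissue effect itself differed by genotype was tested by the interaction. No member peak was called (0.0% of all peaks), 10 had an unadjusted p below 0.05 (7.27% of all peaks did), and DESeq2 also called 0. The smallest adjusted p was 0.423. The median interaction was -0.24 over members and -0.08 over all peaks, and -0.02 over members without lung control library 2. Every Vps34-deficient library lay above the controls in spleen and below them in lung at 3 member peaks (0.899% of all peaks), and the reverse held at 0 (0.619% of all peaks). The different call lists of the 2 genotypes are not shown to differ by the interaction test on any single peak.

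Tnfrsf18 carried the highest tissue value, at the intergenic peak 4708 bp from its start already described for spleen. It held 32.6 and 33.2 CPM in spleen control and 52.7 and 78.3 CPM in lung control, and 66.2 and 49.3 CPM in lung Vps34-deficient against 41.3 to 50.8 CPM in spleen Vps34-deficient libraries. Both lung controls were well above both spleen controls, whereas the Vps34-deficient groups overlapped. In control Tregs the log2 fold change was 1.08 (SE 0.16, adjusted p = 0.000108), a call kept in all 10 fits that left out a library, and in Vps34-deficient Tregs it was 0.39 (SE 0.14, adjusted p = 0.0483), under the fold threshold. The average over genotypes was 0.69 (SE 0.12, adjusted p = 0.000128), and 0.47 without lung control library 2. None of the 6 motifs matched in its central window, which is shown because this peak has the largest tissue effect of the members in control Tregs.
Tnfrsf18 lung-high peak, plus strand, GRCm38 chr4:156030722-156031021: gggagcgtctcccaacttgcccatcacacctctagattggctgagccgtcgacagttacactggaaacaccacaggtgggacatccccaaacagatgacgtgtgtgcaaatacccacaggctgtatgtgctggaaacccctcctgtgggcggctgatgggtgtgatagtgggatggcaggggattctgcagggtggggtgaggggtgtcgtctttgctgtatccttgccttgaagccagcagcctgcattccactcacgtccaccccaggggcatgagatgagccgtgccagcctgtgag

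The second Tnfrsf18 call, over a coding exon of Ttll10 (chr4:156035007-156035343), had a control log2 fold change of 0.64 and sat at the threshold (adjusted p = 0.0477), and it was kept in 1 of the 10 fits that left out a library, the one without lung control library 1, and in 1 of 11 other settings. Without lung control library 2 it was 0.28 (adjusted p = 0.513). Summed over its 8 peaks, Tnfrsf18 had the largest control tissue effect of the 7 genes, at 181 and 205 CPM in spleen control and 215 and 283 CPM in lung control (log2 fold change 0.45, SE 0.12, adjusted p = 0.0264). This was under the fold threshold, and 8.44% of all genes were called. Without lung control library 2 it was 0.14 (adjusted p = 0.39) and without spleen control library 1 it was 0.26 (0.296), while without lung control library 1 it was 0.55 and called (0.00402), as it was with a window of 2 kb (0.89, 0.0016).

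Tnfrsf9 had 3 intronic peaks that were more open in control lung. An intronic peak between the last 2 of them, at 150921248, was not (8.24 and 8.54 CPM in spleen control, 6.80 and 7.06 CPM in lung control). The first (chr4:150915124-150915882), 941 bp from the upstream start, held 38.3 and 44.4 CPM in spleen control, 33.2, 34.6, 39.4 and 33.6 in spleen Vps34-deficient, 50.4 and 68.2 in lung control and 44.8 and 48.3 in lung Vps34-deficient libraries. All 4 lung libraries exceeded all 6 spleen libraries. The log2 fold change was 0.60 (SE 0.14, adjusted p = 0.00352) in control, 0.45 (SE 0.12, adjusted p = 0.00905) in Vps34-deficient Tregs and 0.52 (SE 0.09, adjusted p = 8.03e-05) on average. The average fell below the fold threshold in 5 of the 10 fits without a library, and its call was kept in 5 of the 10 other settings. Its lowest value was 0.39, without lung control library 2. The others below the threshold were those without spleen control library 1 or spleen Vps34-deficient library 1, 2 or 3. The control value was 0.27 without lung control library 2 and 0.40 without spleen control library 1, both under the fold threshold.
Tnfrsf9 first intronic peak, plus strand, GRCm38 chr4:150915353-150915652: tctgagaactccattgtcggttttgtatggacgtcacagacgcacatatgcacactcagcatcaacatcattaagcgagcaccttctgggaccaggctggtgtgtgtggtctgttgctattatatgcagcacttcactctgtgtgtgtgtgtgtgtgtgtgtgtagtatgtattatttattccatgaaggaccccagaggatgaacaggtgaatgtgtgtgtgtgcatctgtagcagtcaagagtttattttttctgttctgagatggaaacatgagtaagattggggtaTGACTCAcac

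The second (chr4:150917365-150917635) held 6.51 and 7.03 CPM in spleen control and 11.8 and 12.4 CPM in lung control, and held 7.86, 7.10, 8.03 and 8.76 CPM in spleen and 6.66 and 9.31 CPM in lung Vps34-deficient libraries. Its control log2 fold change was 0.92 (SE 0.22, adjusted p = 0.00616), lost without spleen control library 1 (0.76, adjusted p = 0.13), against 0.05 (SE 0.20) in Vps34-deficient Tregs. The last of these peaks is the one that was lower without Vps34 in lung. Its control tissue effect was 0.81 (SE 0.16, adjusted p = 0.0013) and its average tissue effect was 0.58 (SE 0.11, adjusted p = 0.000324), with 0.31 (adjusted p = 0.168) in control and 0.36 on average without lung control library 2. All 3 windows hold an AP-1 match, as does the window over the RefSeq start at 150927999, which also holds an NF-κB match.
Tnfrsf9 second intronic peak, plus strand, GRCm38 chr4:150917350-150917649: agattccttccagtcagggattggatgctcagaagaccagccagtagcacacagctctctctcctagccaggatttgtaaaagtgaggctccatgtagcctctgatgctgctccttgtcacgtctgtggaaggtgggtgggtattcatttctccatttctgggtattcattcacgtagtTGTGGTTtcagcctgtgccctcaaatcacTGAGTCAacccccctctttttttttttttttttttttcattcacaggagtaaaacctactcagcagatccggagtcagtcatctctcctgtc

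Of the remaining control calls, the intronic Tnfrsf1b peak near the fold threshold for genotype held 56.8 and 63.0 CPM in spleen control and 72.8 and 101 CPM in lung control (log2 fold change 0.62, SE 0.13, adjusted p = 0.00151), and it ended as a call without lung control library 2 (0.27, adjusted p = 0.136) or spleen control library 1 (0.45, 0.0916). The peak beside Tnfrsf25 that was more open in lung lies over a coding exon of Espn (chr4:152120431-152121206), with 39.9 and 45.1 CPM in spleen control and 59.96 and 60.4 CPM in lung control (log2 fold change 0.58, SE 0.14, adjusted p = 0.00484). It ended as a call without spleen control library 1 (0.39, adjusted p = 0.183) and sat just under the fold threshold without lung control library 2 (0.48) or spleen Vps34-deficient library 1, 2 or 3 (0.49 to 0.50).

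Tnfrsf8, whose product CD30 marks activated lymphocytes, had called peaks in the opposite direction. An intronic peak (chr4:145274829-145275360) held 19.96 and 20.7 CPM in spleen control, 19.2, 15.7, 15.9 and 14.9 in spleen Vps34-deficient, 8.08 and 13.6 in lung control and 7.96 and 9.74 in lung Vps34-deficient libraries. All lung libraries were below all spleen libraries. The log2 fold change was -0.81 (SE 0.21, adjusted p = 0.0113) in control, -0.85 (SE 0.20, adjusted p = 0.00426) in Vps34-deficient Tregs and -0.83 (SE 0.15, adjusted p = 9.8e-05) on average, with the average call kept in all 10 fits that left out a library. The control call ended without lung control library 1 (-0.58, adjusted p = 0.0893) and the other without lung Vps34-deficient library 1 (-0.64, 0.0998). A second intronic peak (chr4:145301987-145302347) held 7.93 and 7.03 CPM in spleen control, 7.998, 8.20, 8.12 and 8.90 in spleen Vps34-deficient, 5.74 and 4.38 in lung control and 4.30 and 5.08 in lung Vps34-deficient libraries. Tissue groups did not overlap in either genotype, and the average log2 fold change was -0.66 (SE 0.17, adjusted p = 0.00377), also kept in all 10. Its call in Vps34-deficient Tregs ended without lung Vps34-deficient library 1 or 2 (adjusted p = 0.184 and 0.0659), as did that of another intronic peak (0.121 and 0.138). This peak (chr4:145284370-145285055) had an average of -0.56 (SE 0.14, adjusted p = 0.00381), under the fold threshold without spleen control library 2 or lung control library 1. Of the 16 Tnfrsf8 peaks, 14 had a negative tissue effect in Vps34-deficient Tregs, and the summed gene had -0.31 (SE 0.08, adjusted p = 0.0128) there, under the fold threshold (9.76% of all genes were called), and -0.04 (SE 0.09) in control. The control value was -0.23 without lung control library 2, and the other was -0.21 (adjusted p = 0.183) without lung Vps34-deficient library 1 and -0.30 (0.0694) without library 2.

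In Vps34-deficient Tregs the lower calls outside Tnfrsf8 included 1 intronic Tnfrsf9 peak (chr4:150921248-150921599), with 8.76, 8.44, 9.03 and 12.4 CPM in spleen and 6.34 and 4.87 CPM in lung (log2 fold change -0.72, SE 0.22, adjusted p = 0.0253). Another was near Tnfrsf4 over a coding exon of Sdf4 (chr4:156008280-156008889), with 23.7, 20.3, 18.8 and 21.4 CPM in spleen and 13.5 and 13.6 CPM in lung (-0.58, SE 0.17, adjusted p = 0.0204). Spleen and lung did not overlap at either peak, and both calls ended without lung Vps34-deficient library 1 (adjusted p = 0.0597 and 0.135) or library 2 (0.279 and 0.133). Spleen control library 2 and spleen Vps34-deficient library 4 also ended the first when left out (0.0511 and 0.074).

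Cd27, which marks less differentiated T cells, had 2 called peaks, both of low depth and both over non-coding exons of Vamp1. The first (chr6:125243728-125243932) held 2.85 and 3.86 CPM in spleen control, 1.67, 2.08, 1.99 and 2.58 in spleen Vps34-deficient, 1.49 and 1.83 in lung control and 0.812 and 0.635 in lung Vps34-deficient libraries, the last from as few as 6 counts. Its average tissue log2 fold change was -1.16 (SE 0.30, adjusted p = 0.00424), kept in all 10 fits that left out a library, and in Vps34-deficient Tregs alone it was -1.44 (SE 0.43, adjusted p = 0.0223), lost without either lung Vps34-deficient library (0.0932 and 0.158). The second (chr6:125244659-125244881) held 1.25 to 3.17 CPM in spleen and 1.27 to 1.83 CPM in lung libraries, with an average of -0.80 (SE 0.29, adjusted p = 0.0427) that was lost without spleen control library 2, spleen Vps34-deficient library 3 or 4, lung control library 1 or either lung Vps34-deficient library (adjusted p = 0.0541 to 0.0977). The single call at Tnfrsf25 on average tissue (chr4:152125275-152125510, in Espn) was 4.95 and 6.61 CPM in spleen control, 5.56, 5.38, 6.32 and 5.17 in spleen Vps34-deficient, 4.47 and 4.09 in lung control and 3.33 and 3.39 in lung Vps34-deficient libraries (log2 fold change -0.54, SE 0.19, adjusted p = 0.0338). Without spleen control library 2 or either lung Vps34-deficient library this last call was lost (adjusted p = 0.109, 0.0944 and 0.0814).

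Averaged over genotypes, 3 member peaks were called higher in lung (18.4% of all peaks), 1 at Tnfrsf18 and 2 at Tnfrsf9, and 6 lower (6.51% of all peaks), 3 at Tnfrsf8, 2 at Cd27 and 1 at Tnfrsf25. DESeq2 called 2 higher and 8 lower. The higher count was 0 without lung control library 2 and 5 without lung Vps34-deficient library 1, and the lower count was 10 without lung control library 2 or spleen Vps34-deficient library 2 and 3 without spleen control library 2. Tnfrsf4 and Tnfrsf1b had no called peak in this comparison. Values of other cell types moved with tissue: the summed CPM of 6 myeloid markers, of which 3 had any peak with 10 kb on each side, was 155 to 200 in the 6 spleen libraries and 220 to 244 in the 4 lung libraries, with the peak in Cd68 at means of 34.1 and 51.3 in the spleen groups and 88.2 and 117 in the lung groups, and that of the 6 lung epithelial markers was 64.8 to 75.7 and 83.8 to 94.2. Itgam, the other myeloid gene with peaks in its body, went from 6.91 in spleen to 9.37 in lung in control means. In Vps34-deficient means it went from 8.03 to 5.98. Of the epithelial genes, Epcam went from 31.1 to 39.9 in control and from 31.3 to 42.5 in Vps34-deficient means. Cldn18 went from 4.145 to 5.76 and from 1.515 to 1.309, and Nkx2-1 from 0.849 to 1.80 and from 0.706 to 1.71. The part of these levels in the tissue results was not tested.

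**Figure D4:**
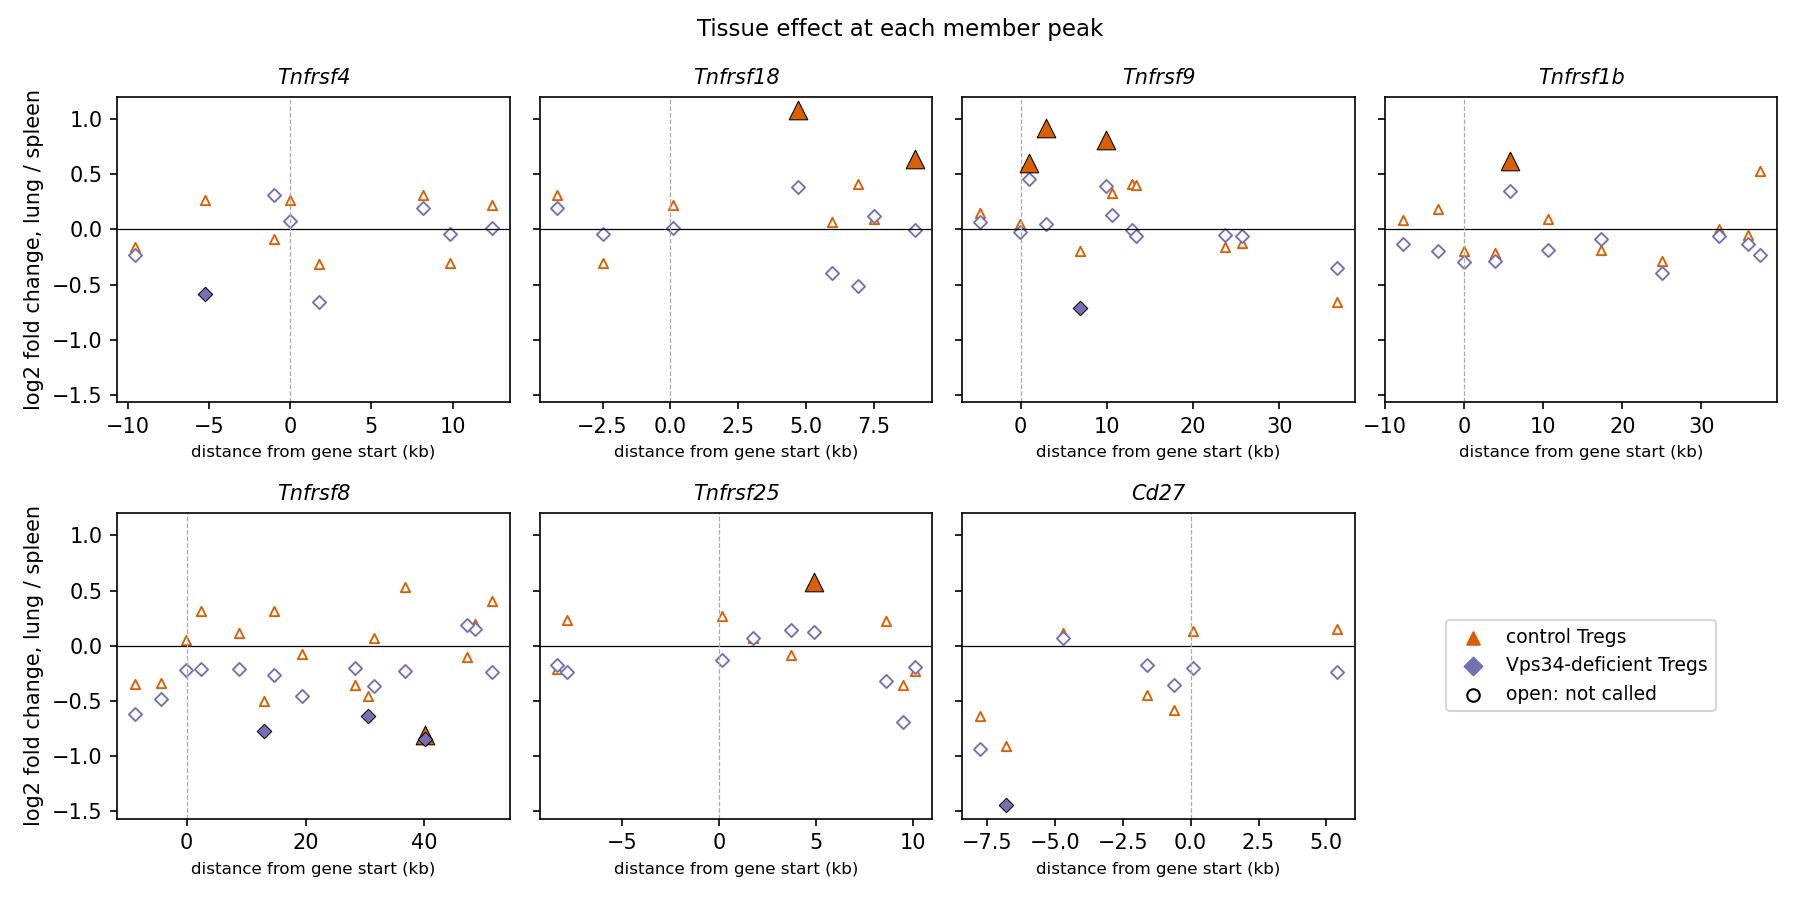
Log2 fold change of lung over spleen (vertical axis) for every peak of each gene against the distance of its centre from the gene's start in kb, in control (triangles) and Vps34-deficient (diamonds) Tregs. Filled symbols are called; the filled triangles above 0 lie at Tnfrsf18, Tnfrsf9, Tnfrsf1b and Tnfrsf25, with 1.08 as the top value, and all filled diamonds lie below 0.

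Sequence features were counted in the 300 bases around each peak's centre, which for peaks narrower than that include bases outside the peak (the narrowest member peak is 200 bp). AP-1 letters matched in 11 of 68 member windows (16.2%) and in 13.0% of 97250 windows, NF-κB in 3 (4.41% against 2.66%), Runx in 6 (8.82% against 10.8%), ETS in 13 (19.1% against 16.001%), forkhead in 2 (2.94% against 4.34%) and CRE in 0 (0.849% of all windows). By gene, AP-1 matched in 4 of 12 Tnfrsf9 windows and 4 of 11 Tnfrsf1b windows, 2 of 16 at Tnfrsf8, 1 of 8 at Tnfrsf4 and none at Tnfrsf18, Tnfrsf25 or Cd27. ETS matched in 6 of 16 Tnfrsf8 and 3 of 7 Cd27 windows. Among the peaks called lower in lung without Vps34, 2 of 4 held AP-1, as did 3 of 7 called higher in control lung and 1 of 6 called lower in Vps34-deficient lung. ETS matched in 5 of the 6 called lower in lung on average. The share of all called peaks in these comparisons that hold the same letters is not given here, so these counts have no background. A match is a run of letters in the reference genome and not a measured binding site.

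The ligands and the signaling partners of these receptors were described by the same calls. For the 8 ligand genes (37 peaks), 0 peaks were called for genotype in spleen, and 3 were higher (8.11%, against 1.22% of all peaks) and 0 lower (3.74% of all peaks) in lung, all 3 at Tnfsf8, which encodes the ligand of CD30. The most accessible of the 3 by its level in lung (chr4:63859800-63860233) held 4.74 ± 1.12 CPM (SD, n = 2) in lung control and 9.83 ± 1.03 CPM (SD, n = 2) in lung Vps34-deficient Tregs, with a log2 fold change of 1.05 (SE 0.27, adjusted p = 0.0225 in edgeR's quasi-likelihood test). Another of the 3 (chr4:63868340-63868658) was of low depth, at 0.247 ± 0.349 CPM in lung control and 2.63 ± 1.33 CPM in lung Vps34-deficient Tregs (SD, n = 2 each). Among 14 adaptor and proximal signaling genes (106 peaks), lung Tregs without Vps34 had 1 peak higher, at Ikbkb, and 5 lower, at Traf1, Traf5 and Tank. These shares (0.94% and 4.72%) are near those of all peaks (1.22% and 3.74%). The Traf1 peak chr2:34961427-34962031 went from 21.1 ± 6.68 to 10.7 ± 1.38 CPM (SD, n = 2 each; log2 fold change -1.01, SE 0.23, adjusted p = 0.00965), and the Traf5 peak chr1:192062630-192063170 from 9.12 ± 0.27 to 4.02 ± 0.29 CPM (-1.20, SE 0.25, adjusted p = 0.00458). TRAF1 and TRAF5 bind the cytoplasmic tails of several receptors described here. The median lung log2 fold change was -0.12 over the adaptor peaks, 0.05 over the ligand peaks and 0.06 over the 87 peaks of 19 other TNF receptor superfamily genes, of which 1 was called higher and 1 lower. The receptors' own median was -0.21, and -0.05 without lung control library 2. The values of the ligand, adaptor and other receptor lists come from the fit of all 10 libraries. How they change with a library left out is not given here.

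Across the 10 libraries, log2 summed accessibility was most alike between Tnfrsf4 and Tnfrsf18, which share 3 peaks (Pearson r = 0.89), and among pairs with no shared peak between Tnfrsf1b and Cd27 (r = 0.83), Tnfrsf18 and Tnfrsf9 (r = 0.75) and Tnfrsf1b and Tnfrsf8 (r = 0.71). Tnfrsf18 and Tnfrsf8 went the other way (r = -0.32). Among protein-coding genes with enough counts that shared no peak with the member, the genes most like Tnfrsf4 were Hook2 (r = 0.96), Rhog (0.95) and Prr3 (0.94), those most like Tnfrsf18 were Hivep1 (0.96), Jak2 (0.95) and Capn11 (0.94), and those most like Tnfrsf9 were Reep3 (0.96), Nup98 (0.94) and Nsmce2 (0.94). Tnfrsf1b was most like 2900026A02Rik (0.94), Pik3ca (0.94) and St3gal1 (0.93), Tnfrsf8 like Prdm2 (0.96) and Srarp (0.95), Tnfrsf25 like Crlf3 (0.85), Wdr26 (0.83) and Cnbd2 (0.83), and Cd27 like Kpnb1 (0.98), Sertad3 (0.97) and Cnn2 (0.97). These values describe 10 libraries that share tissue, genotype and depth, and the genes named ranked at the top of 2673 to 12957 genes compared.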

How the data were processed

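Reads were processed by the authors, who, per the study's methods, trimmed adaptors, aligned with BWA, removed duplicates, shifted ends for Tn5, kept nucleosome-free fragments, called peaks per sample with MACS2, merged the peaks that 50% or more of a genotype's samples shared. The deposited table holds raw counts, with no normalization, of 97385 merged peaks in 10 libraries. The methods name mm9 and the submitters' processing notes GRCm38; gene starts fell in peaks at 51.2% on GRCm38, against 2.22% to 2.82% after shifting, so GRCm38 (GENCODE vM21) was used. Even numbers, as both mates of a pair would give, made up 91.5% to 96.5% of counts.

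The 7 genes, their windows and all lists were chosen with earlier results of these data known. Each peak with enough counts (filterByExpr; 97109 peaks, all 68 members among them) entered edgeR 4.0.16 with TMM scaling and quasi-likelihood tests on 4 groups, with additive models for the averages; p-values were adjusted by Benjamini-Hochberg over all peaks, and the common biological variation was 17.8%. CPM is the count per 1e6 of the library total. Gene values sum the peaks of a gene's body and 10 kb on each side, tested likewise over 17619 genes. Full values were given for promoter peaks, peaks called for genotype and up to 2 peaks a gene called for the average tissue effect; other peaks named with values were chosen after these were seen. Alternatives were other scalings, filters, DESeq2 1.42.0, halved counts, a replicate block, groups compared alone, a chromosome Y covariate, loess offsets, a 2 kb window, no fold threshold and each library left out. Scripts were tested on simulated data. The labels do not say that libraries of a group came from separate mice, so p-values measure the spread between libraries. Promoter peaks were chosen at starts annotated by GENCODE vM21, and the Tnfrsf9 starts at 150920155 and 150927999 were credited to RefSeq (GRCm38.p6). A few items withheld for evaluation are not reported here.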

Additional observations from a re-analysis of the deposited data

Results flagged for a closer look

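In the spleen Vps34-deficient group, the only group large enough, 1 library stood far from the other 3 in 5 of 75 values tested. Chance would give about 1 in 20 of unrelated values. These values share libraries and the gene sums hold the same peaks, so that rate cannot decide whether the 5 are chance. Library 4 had 55.1 CPM against 47.3 to 48.5 at the Tnfrsf1b peak starting at 145249997, and 12.4 against 8.44 to 9.03 at the Tnfrsf9 peak starting at 150921248. Library 1 had 2.50 CPM against 3.43 to 3.45 at the Tnfrsf8 peak starting at 145267935, and 25.2 against 23.7 to 23.9 at the Tnfrsf9 peak starting at 150909570. Library 2 had 512 CPM against 525 to 528 in the Tnfrsf1b sum.

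At 3 member peaks, every Vps34-deficient library lay above the controls in spleen and below them in lung (0.899% of all peaks), and at 0 the reverse (0.619%). The interaction was -0.87 (adjusted p = 0.492, edgeR's quasi-likelihood test) at the Tnfrsf9 peak starting at 150917365, from 0.23 in spleen and -0.64 in lung. It was -0.85 (adjusted p = 0.423) at the Tnfrsf4 peak starting at 156008280, from 0.23 and -0.62, and -0.46 (adjusted p = 0.716) at the Tnfrsf18 peak starting at 156031941, from 0.24 and -0.22. None of the 3 differences passed the test.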

How the results depend on the processing

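No value of a called peak changed direction in the fits run in which it was recomputed; values of promoter peaks, none called, did. Of 240 counts recomputed under other settings, 209 stayed within 1.5 times, and of 190 with 1 library left out, 157 did. Lung genotype: higher calls were 1 with the stricter filter and 0 to 1 with 1 library left out, and lower calls were 2 with the replicate block or with the crossed block, 0 with the lung groups alone, 1 with the 2 kb window and 0 to 8 with 1 library left out. Control tissue: lower calls were 2 with library size or median-of-ratios scaling, DESeq2, no filter, the stricter filter, halved counts, the chromosome Y covariate or loess offsets, against 1, and 0 to 6 with 1 library left out, when higher calls were 2 to 7. Vps34-deficient tissue: higher calls were 3 without a fold threshold and 0 to 2 with 1 library left out, and lower calls were 2 with the replicate block and 0 to 7 with 1 library left out. Average genotype: higher calls were 2 without a fold threshold, 0 with the 2 kb window and 0 to 1 with 1 library left out, and lower calls were 3 with DESeq2, no filter, the stricter filter, halved counts or no fold threshold, 2 with the chromosome Y covariate or loess offsets, 0 with the 2 kb window and 1 to 2 with 1 library left out. Average tissue: higher calls were 6 without a fold threshold and 0 to 5 with 1 library left out, and lower calls were 11 without a fold threshold, 3 with the 2 kb window and 3 to 10 with 1 library left out. Genes summed over peaks: control tissue calls were 1 with the 2 kb window or without a fold threshold and 0 to 1 with 1 library left out, and Vps34-deficient tissue calls were 1 without a fold threshold. Fewer peaks enter with the 2 kb window (44); the other causes were not tested.

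The labels do not say what a replicate number shares. Same-numbered deviations of spleen and lung libraries of a genotype correlated at -0.04 to 0.08. Those of the 2 genotypes in a tissue, which cannot share a mouse, correlated at -0.20 to -0.10. In groups of 2 libraries the deviations mirror each other, so these values cannot decide whether libraries were paired. The numbers were not taken as pairs, and the tissue tests treat spleen and lung libraries as independent. Chromosome Y peaks nevertheless held 7.03 to 21.4 CPM or 56.9 to 67.6 CPM alike in spleen and lung for all 4 pairs of the same number and genotype; whether these came from the same mice was not tested. Blocking left the spleen and interaction counts at 0. The lung numbers correlated at -0.20, and crossing them, chosen after seeing the data, gave 2 lower lung calls and 4 lower Vps34-deficient tissue calls. Depth limits peaks such as those near Cd27, with as few as 6 counts in a library.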
